A study of Mus musculus with 2 samples.

Results

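The clustered protocadherins are cell-surface adhesion proteins encoded by 3 gene arrays, Pcdha, Pcdhb and Pcdhg, that lie side by side on mouse chromosome 18. The members described here are the protein-coding genes of GENCODE release M21 on chromosome 18 whose symbol starts with Pcdha, Pcdhb or Pcdhg followed by a digit, a, b or c. The rule took 57 of 21938 protein-coding genes: 14 of the alpha, 22 of the beta and 21 of the gamma array. All 57 lie on the plus strand, between positions 36930184 and 37841873 of the mm10 assembly, a span of 911.69 kb. Pcdha11 is the symbol of 2 gene models, called here the first (5′ end at 37005203) and the second (37010712) model. The gamma gene Pcdhgb8 is annotated as a polymorphic pseudogene and is therefore no member.

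DNase-seq maps open chromatin as the places where the enzyme DNase I cuts DNA most readily. It was carried out on MN1, an immortalized mouse cell line of strain B6NCrl, grown with 10 nM methyltrienolone, a synthetic androgen. The 2 libraries, labelled biological replicates 1 and 2, form 1 group. Both carry the same treatment, no untreated library was analysed here, and the line stands for itself alone: its tissue of origin, sex and age are not stated. Every value below is therefore a level in treated cells, and no value is a response to the androgen.

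Each Pcdha and Pcdhg gene starts with a variable exon that has its own promoter and codes for the extracellular and transmembrane parts of the protein. This exon is spliced to constant exons shared by the whole array, which code for the common end inside the cell. Pcdhb genes have a variable exon and no constant exons. Individual neurons are known to use different sets of alternate promoters, and the combination of proteins on a cell's surface lets its branches recognise each other. The C-type genes (Pcdhac1, Pcdhac2, Pcdhgc3, Pcdhgc4 and Pcdhgc5) form a class of their own, known to be controlled apart from the alternate genes. Promoter choice in the arrays is known to involve the DNA-binding protein CTCF, the cohesin ring, DNA methylation and distant enhancers.

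A peak is a 150 bp stretch called in 1 library, with a score from 1 to 150 that the authors deposited. The sources used here do not define that score. The replicates held 189648 and 170745 peaks with median scores of 53 and 51, so a score ranks a peak within its own list and nothing more. A shared region is a merged stretch in which peaks of both replicates overlapped by at least 1 bp, and there were 127807 of them. Here, an open promoter is one with a shared region that reaches within 1 kb of an annotated transcription start of its gene. Read depth is unknown, and the lack of a peak does not show that a promoter is closed. With 1 group, all results are descriptions without a test.

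Across the 3 arrays, 24 of 57 members (42.1%) had an open promoter, beside 59.5% of all protein-coding genes. The beta array had the most, with 15 of 22 members, followed by 7 of 14 in the alpha array and 2 of 21 in the gamma array. Among the 5 C-type genes 4 were open, while none of the 18 gamma A and B genes was. In 27 members neither replicate had a peak within 1 kb. A further 2 had a peak in replicate 1 alone, beside 2.28% of all protein-coding genes, and 4 in replicate 2 alone, beside 1.18%. These 6 peaks scored between 17 and 34.

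**Figure D1:**
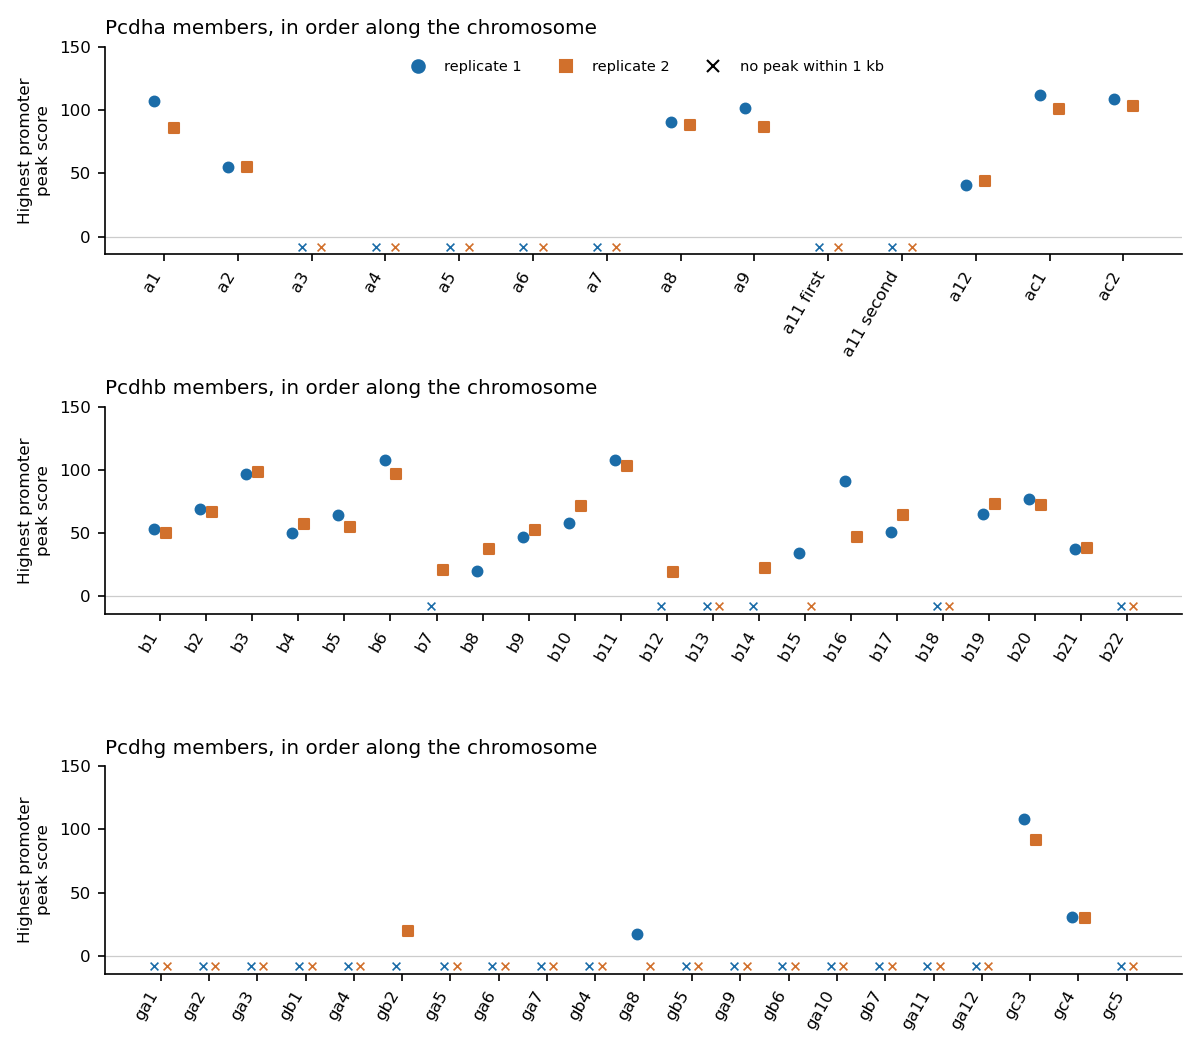
Highest score of a peak within 1 kb of the 5′ end of each member, in chromosomal order, for replicate 1 (circles) and replicate 2 (squares); crosses mark replicates without such a peak. Peaks are present at most Pcdhb members, at separate groups of Pcdha members, and at few Pcdhg members, of which Pcdhgc3 and Pcdhgc4 have peaks in both replicates.

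In the alpha array the open promoters were those of Pcdha1, Pcdha2, Pcdha8, Pcdha9, Pcdha12 and both C-type genes. Pcdha1, the first gene of the array, had a highest promoter score of 107 in replicate 1 and 86 in replicate 2. Pcdha2, the next gene, had 55 in both replicates. A run of 5 neighbouring genes, Pcdha3 to Pcdha7, had no peak within 1 kb in either replicate. Pcdha8 followed with 91 and 88, and Pcdha9 with 102 and 87. Both Pcdha11 models again lacked a peak, and Pcdha12 had 41 and 44, the lowest pair among the open alpha promoters. The shared regions at Pcdha12 also lie within 1 kb of an annotated start of another gene, Gm10545. The open alternate genes thus stood in 3 separate stretches, at the start, in the middle and at the end of the row of 12 alternate exons.

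The C-type genes that close the alpha array ranked high in both replicates. Pcdhac1 scored 112 in replicate 1 and 101 in replicate 2, and Pcdhac2 scored 109 and 103. They were 2 of only 3 members with a score of at least 100 in both replicates. Among all protein-coding genes with an open promoter 79.3% reached that level, against 12.5% (3 of 24) of the open members. The level of 100 was chosen after the values were seen. Pcdhac2 also had the widest hotspot (a broader enriched stretch called by the authors) of any member, 1899 bp in replicate 1 and 1246 bp in replicate 2. Its highest peak lay 287.5 bp past the 5′ end in replicate 1 and 367.5 bp past it in replicate 2, still before the annotated start codon at 466 bp.

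In the beta array 15 of 22 members (68.2%) were open, beside 59.5% of all protein-coding genes and 68.4% of the other ones on chromosome 18. Pcdhb11 scored 108 and 103 in replicates 1 and 2 and was the third member at 100 or above in both. Pcdhb6 scored 108 and 97, and Pcdhb3 97 and 98. The lowest open pair was that of Pcdhb8, with 20 and 37. These 4 genes mark the range within which the other open beta promoters fell. Pcdhb1, Pcdhb2, Pcdhb4 and Pcdhb5, together with Pcdhb3, opened the array without a gap, with scores from 50 to 69 in replicate 1 and from 50 to 67 in replicate 2 for these 4. Pcdhb9 (47 and 52) and Pcdhb10 (58 and 71) led up to Pcdhb11.

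Past Pcdhb11 the row was broken. Pcdhb12, Pcdhb13, Pcdhb14 and Pcdhb15 held no shared region. Pcdhb12 had a peak of 19 and Pcdhb14 a peak of 22 in replicate 2 alone, Pcdhb15 a peak of 34 in replicate 1 alone, and Pcdhb13 none. Pcdhb16 scored 91 in replicate 1 and 47 in replicate 2, the largest difference in score between the replicates among the open members. Within their own peak lists these scores stood at percentiles of 77.2 and 45.4. Pcdhb17 (51 and 64), Pcdhb19 (65 and 73), Pcdhb20 (77 and 72) and Pcdhb21 (37 and 38) were open near the end of the array. Pcdhb18 and Pcdhb22, the last gene, had no peak, and Pcdhb7 a peak of 21 in replicate 2 alone.

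The gamma array stood at the other extreme. Its 18 A and B genes, from Pcdhga1 to Pcdhga12, had no shared region within 1 kb, and 16 of them had no peak in either replicate. Pcdhgb2 had a peak of 20 at its 5′ end in replicate 2, and Pcdhga8 a peak of 17 in replicate 1, centred 924.5 bp inside the gene. Pcdhgc3 scored 108 in replicate 1 and 92 in replicate 2. Pcdhgc4 scored 31 and 30, but its peaks were centred at −568.5 to −788.5 bp, before the annotated 5′ end. Pcdhgc5, the last gamma gene, had no peak in either replicate.

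Among the gamma A and B exons, strong peaks lay at the promoter of the pseudogene Pcdhgb8 (5′ end at 37761801), which was picked out after its values were seen. Its highest peak scored 102 in replicate 1, centred at −130.5 bp from the 5′ end, and 98 in replicate 2, centred at −390.5 bp. At the nearer position replicate 2 had a peak of 95, and at the farther one replicate 1 had a peak of 81. The 2 shared regions are chr18:37761316-37761485 and chr18:37761576-37761745. Its neighbours Pcdhga11 and Pcdhga12 had no peak within 1 kb in either replicate.

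The open members differed from other open genes in the size of the signal. Their median highest score was 67 in replicate 1 and 69 in replicate 2, beside 137 and 128 over all 13054 open protein-coding genes. The lower of the 2 percentiles of a promoter's score, each within its own peak list, had a median of 58.1 over the open members and 94.7 over all open genes. The alpha array had a median score of 102 and 87 over its 7 open members, and the beta array 64 in both replicates over its 15. Hotspots at open members were narrower, with medians of 521 and 564 bp beside 1341 and 1266 bp over all open genes.

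The replicates ranked the open members in a similar order, with a Spearman's rho of 0.902 over 24 members and 0.761 over the 15 beta genes. These genes share a library and sequence and are not independent, so the values are descriptions. The score was higher in replicate 1 for 14 of the 24, lower for 9 and equal for 1, while 86.4% of all open genes had the higher score in replicate 1. The median absolute difference was 6.5 score units for the members and 8 for all open genes. A score ranks a peak within its own list only, so these differences do not measure a difference in openness.

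Peaks at open members sat at the 5′ end. The centre of the highest peak lay at a median of −27.5 bp from it in replicate 1 and −37 bp in replicate 2. It was within 150 bp in 20 of 24 members in replicate 1 and in 19 in replicate 2. The exceptions in both replicates were Pcdhac2, Pcdhb1, Pcdhb17 and Pcdhgc4. At Pcdhb17 the peaks were centred 175.5 and 155.5 bp inside the gene, and at Pcdhb1 at −187.5 and −167.5 bp, before it. At Pcdha12 the highest peak of replicate 2 lay 561.5 bp inside the variable exon, beside a peak of 41 at the 5′ end.

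Further peaks inside the gene were about as frequent at open members as at other genes. Counted was a shared region centred 300 to 800 bp past the 5′ end, a window chosen after the data were seen, among genes that also had one within 150 bp of it. Such a region was present in 11 of 20 members, beside 50.5% of the 9475 protein-coding genes with a region at the 5′ end. It was present in 6 of 6 alpha members, among them 5 of 5 alternates, in 5 of 13 beta members, and not in Pcdhgc3, the only gamma member counted. In Pcdha1 this inner region scored 77 and 78, with another peak (65 and 49) between it and the 5′ end. Pcdha8 had inner peaks of 74 and 50 in replicate 1 and of 69 and 36 in replicate 2.

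**Figure D2:**
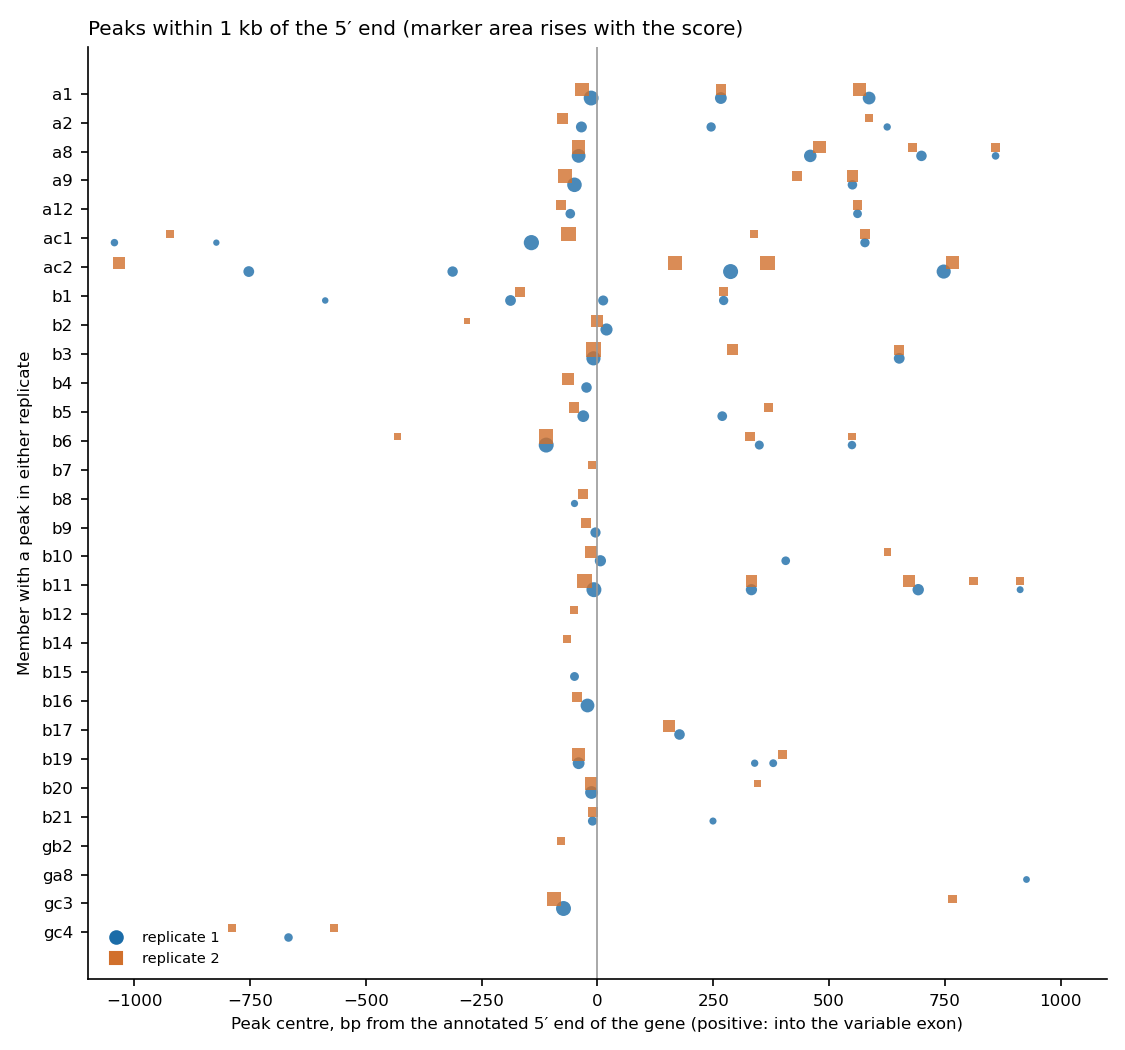
Centres of all peaks within 1 kb of the 5′ end for each member with a peak in either replicate (circles, replicate 1; squares, replicate 2; marker area rises with the score); positive distances lie inside the gene. Most members have peaks just before the 5′ end. The open Pcdha alternates also have peaks further inside the gene, near 550 bp past the 5′ end in Pcdha1, Pcdha9 and Pcdha12.

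CTCF is known to bind both the promoter and the variable exon of alpha alternate genes, and the DNA was searched for its consensus on both strands. A match with at most 2 mismatches within 1 kb of the 5′ end was found in 29 of 57 members, beside 53.3% of all protein-coding genes. With at most 1 mismatch it was found in 10 of 57 members, beside 8.66%, and 9 of the 10 were alpha alternates, of which there are 12. The remaining one was Pcdhgb7. Inside the variable exon, 11 of 12 alpha alternates (all but Pcdha2) had a match with at most 2 mismatches. It lay 462.5 to 608.5 bp past the 5′ end, in every case in the sense direction. Of the 11 matches 9 had at most 1 mismatch, among them 6 without any. The share over all protein-coding genes was not counted for this position, and alternate exons resemble each other in sequence. A match describes the letters of the DNA and does not show that CTCF is bound.

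Of the 11 genes with an exonic match, 4 were open and 7 were not. Peaks of both replicates covered the match in Pcdha1 (77 and 78), Pcdha9 (40 and 64) and Pcdha12 (33 and 44). In Pcdha8 no peak covered the whole match, which lay within a hotspot of both replicates. In the other 7 no hotspot of either replicate covered it, although Pcdha4, Pcdha6 and Pcdha7 had matches without a mismatch. An exonic match was thus present in open and in not open alpha genes, but the matches were not identical. Those of the 4 open genes had at most 1 mismatch. So did those of Pcdha4, Pcdha5, Pcdha6, Pcdha7 and the first Pcdha11 model, which were not open. Those of Pcdha3 and the second Pcdha11 model, also not open, had 2. Pcdha2, the alternate without an exonic match, was open. The part of the motif in openness was not tested. The REST consensus, the element of a repressor of neuronal genes, was not found with up to 3 mismatches in any of the 57 windows, beside 0.556% of all protein-coding genes.

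Peaks centred 2.2 to 2.5 kb past the 5′ end, a window chosen after the data were seen, were found in either replicate at 6 of 57 members, beside 7.37% of all protein-coding genes. In both replicates they were found at 4 members, beside 3.59%. At Pcdhb3 the highest such peak scored 46 in replicate 1 and 41 in replicate 2, and at Pcdhb10 28 and 55. Pcdhb14 had a peak of 14 in replicate 2 alone and Pcdhb15 one of 26 in replicate 1 alone. In these 4 beta genes a peak there held a CTCF match on the minus strand, opposite to the direction of the gene. The share of such matches over all genes with a peak in this window was not counted, and exons of an array resemble each other. The others were Pcdhga7 (33 and 17, no match) and Pcdhga8 (19 and 27, matches on both strands), and neither had a shared region within 1 kb of its 5′ end.

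The strand of the matches within shared regions was counted by place. Of 44 shared regions at member promoters 10 held a CTCF match, and in 9 it lay on the plus strand, the direction of transcription of the arrays. The exception was a region inside Pcdhb19. Of the 37 other shared regions within the arrays and gaps 7 held a match, on the minus strand in 6 and on both strands in 1. In the downstream flank 12 of 47 regions held a match, on the plus strand in 5, the minus strand in 6 and both in 1. These counts are small, and the share by strand over all shared regions was not counted. Regions at genes of 1 array can hold matches in sequence that these genes share. Of all 37 matches within 1 kb of a member's 5′ end, in a shared region or not, 29 were in the sense direction. Over the locus with its flanks, 17.0% of peaks in replicate 1 and 17.5% in replicate 2 held a match, beside 15.1% and 17.8% of all peaks.

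CpG content and repeated sequence were compared because both can differ between the arrays. The ratio of observed to expected CpG within 500 bp of the 5′ end had a median of 0.682 in the alpha, 0.378 in the beta and 0.594 in the gamma array. The array with the most open promoters had the lowest ratio. Among beta genes the median was 0.407 for open and 0.311 for not open members, and among alpha genes 0.679 and 0.699. Over all protein-coding genes it was 0.710 for open and 0.211 for other genes. Over the 24 open members, the score of replicate 1 and the CpG ratio had a Spearman's rho of 0.289.

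Alternate exons of an array resemble each other, and a read from a repeated stretch cannot be placed. The share of 32 bp sequences within 500 bp of the 5′ end that occur once in the genome was 71.3% to 90.6% for alpha alternates, 84.2% to 100% for beta members and 71.0% to 100% for gamma A and B genes. Among alpha alternates the median was 83.0% for open and 77.2% for not open genes. The not open alternates ranged from 71.3% to 79.3%, and the open ones other than Pcdha12 from 79.8% to 90.6%. Pcdha12 was open at 76.6%, below Pcdha4, which had no peak at 79.3%. Among beta members the median was 99.7% for open and 100% for not open ones. In the gamma array Pcdhgb1, Pcdhga11, Pcdhga12 and Pcdhgc5 had no peak at 100%. The part of repeated sequence in the missing peaks was not tested.

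**Figure D3:**
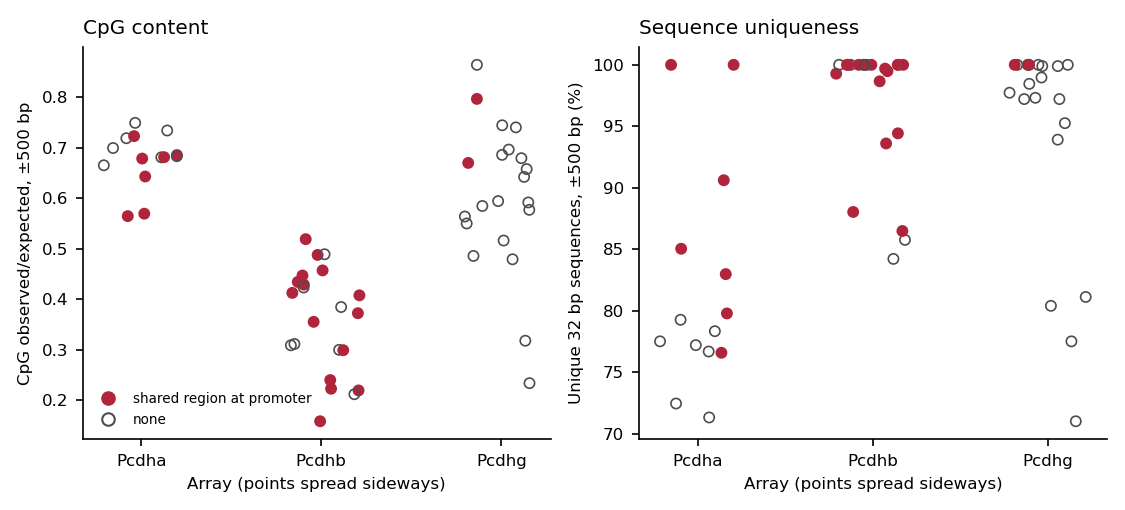
Ratio of observed to expected CpG (left) and share of 32 bp sequences that occur once in the genome (right), within 500 bp of the 5′ end, for each member by array. Filled points are members with an open promoter and open circles the others. Pcdhb members have the lowest CpG ratios, and Pcdha alternates are among the least unique.

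Outside the promoters, the stretches of the constant exons with their introns and the gaps between the arrays also held shared regions. From the Pcdha1 promoter to the end of the gamma array there were 81, of which 44 lay at member promoters and 37 did not. Of these 37, 13 lay within 1 kb of a start annotated to another gene. Shared regions per 10 kb numbered 0.925 over the alpha variable exons, 0.998 over the beta array and 0.426 over the gamma variable exons, beside 0.429 on chromosome 18 and 0.523 on the autosomes. The alpha and gamma constant exon stretches were denser, with 1.90 and 2.97 per 10 kb from 6 and 5 regions.

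**Figure D4:**
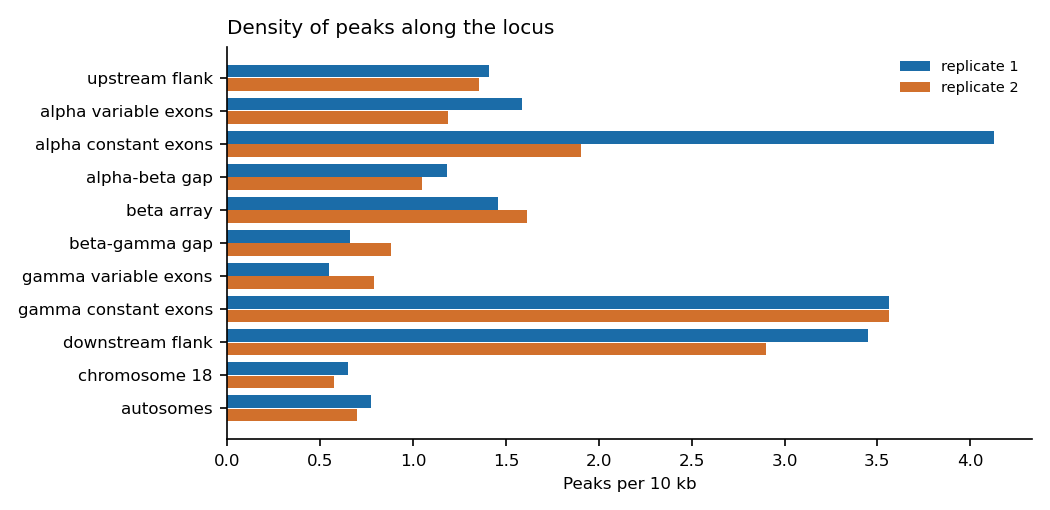
Peaks per 10 kb in each stretch of the locus, with chromosome 18 and the autosomes for comparison (bars, replicates 1 and 2). The constant exon stretches and the downstream flank have the highest densities, and the gamma variable exons lie near the level of the chromosome. The alpha constant exon stretch, which includes the introns, held 13 peaks in replicate 1 and 6 in replicate 2. No peak of either replicate overlapped an alpha constant exon itself.

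None of the 3 alpha constant exons had a shared region within 1 kb. The long intron between the second (37159265-37159353) and the third (37184946-37187657) held 6. The highest were chr18:37162896-37163045 with scores of 96 and 97, chr18:37172316-37172465 with 96 and 99, and chr18:37178476-37178665 with 119 and 88. An annotated start of another gene lies within 1 kb of the second (Gm38097) and of the third (Gm10544). As background, an enhancer of the alpha array known as HS7 lies between its constant exons. No source used here gives its position, so no region is equated with it. Another region, chr18:37149356-37149505 (113 and 98), lay between Pcdhac2 and the first constant exon.

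A group of high shared regions lay in the gap past the last alpha exon. There, chr18:37217316-37217485 scored 134 in replicate 1 and 110 in replicate 2, chr18:37217876-37218045 scored 116 and 109, and chr18:37218236-37218385 scored 144 and 140. The distances to the end of the alpha array are 29.7, 30.3 and 30.6 kb. The first of the 3 holds a CTCF match on the minus strand, opposite to the exonic matches of the alpha alternate genes. An enhancer downstream of the alpha array, also with CTCF sites and needed for most alpha promoters, is known from earlier work. No source used here gives its coordinates. Each of these 3 regions outscored every member promoter in both replicates. Between the beta and gamma arrays, the promoter of Taf7, which codes for a subunit of the general transcription factor TFIID, scored 142 and 136.

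The gamma constant exons differed from those of the alpha array. The first (37825021-37825079) was covered by the shared region chr18:37824976-37825145, with scores of 81 and 88, and had 3 shared regions within 1 kb. The second had none and the third 1. Between the second and the third, 3 regions lay together, the highest being chr18:37836476-37836665 with 117 in replicate 1 and 67 in replicate 2. The start of the transcript Gm38182 is annotated within 1 kb of all 3 regions at the first constant exon, so they cannot be assigned to the exon.

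Beyond the gamma array, the flank of 200 kb held 47 shared regions, or 2.35 per 10 kb, against 0.905 in the upstream flank. Many lay within Diaph1, a neighbouring gene for an actin-nucleating formin. Among them chr18:37852196-37852345 scored 136 and 124, chr18:37880236-37880405 scored 144 and 139, and chr18:37883576-37883745 scored 130 and 113. The last of these holds CTCF matches on both strands and lies 41.8 kb past the gamma array. As background, elements that act on beta and gamma genes are known downstream of the gamma array.

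**Figure D5:**
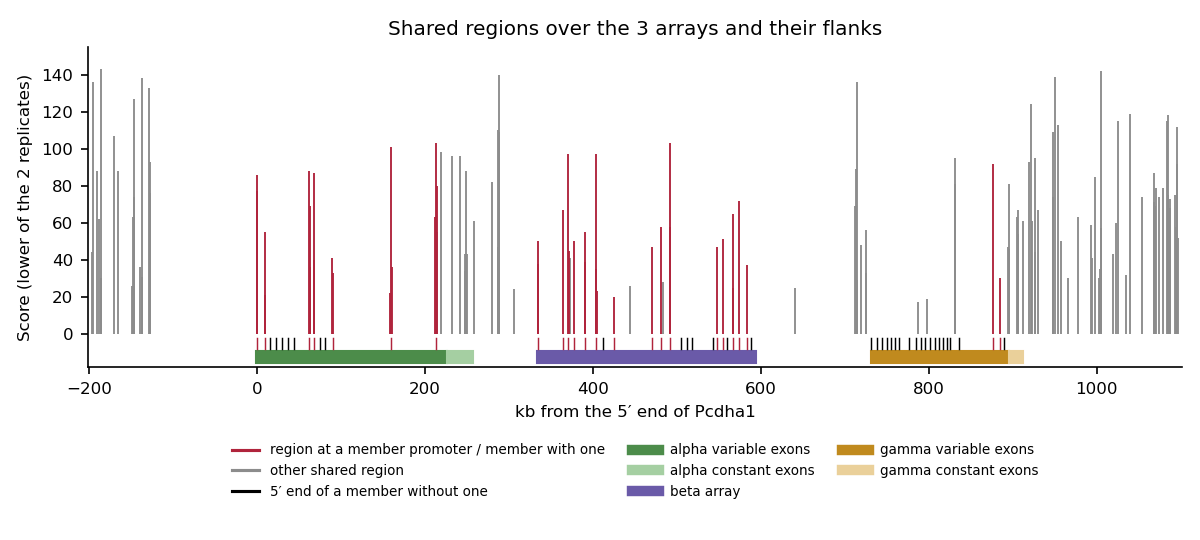
Shared regions over the arrays and 200 kb on either side: the height is the lower score of the 2 replicates, red lines are regions at member promoters, grey lines other regions, and ticks above the coloured bars are the 5′ ends of members (red, open; black, not open). The tall grey lines near 288 kb are the 3 regions past the alpha array, and the row of black ticks marks the gamma A and B genes.

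The genes around the arrays were mostly open. Upstream, Tmco6, Ndufa2, Ik, Wdr55, Hars, Hars2 and Zmat2 were open, with scores from 107 to 149 in replicate 1, and Dnd1, a germ cell gene, had no peak within 1 kb of a start. Downstream, Diaph1 (145 and 142), Hdac3, Rell2, Fchsd1 and Arap3 were open. Hdac3 and Rell2, a divergent pair, share the values 122 and 115. Between the beta and gamma arrays Slc25a2 had no promoter peak, and the 3 long gene models Gm42416, Gm37013 and Gm37388, whose starts lie in the alpha array, had none either.

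Other gene families give a frame for these counts. Of 12 nonclustered protocadherins, related genes that lie outside the arrays, 4 were open: Pcdh17 (138 and 128), Pcdh1 (133 and 131), Pcdh15 (125 and 95) and Pcdh12 (73 and 53). Pcdh10, Pcdh11x and Pcdh18 were among the 8 that were not. Of 18 classical and closely related cadherins 6 were open, with Cdh24, Cdh22, Cdh2 and Cdh15 highest and no peak at Cdh1, Cdh10 or Cdh11. Both shares, 33.3%, lie below the 59.5% of all protein-coding genes, as does that of the clustered genes.

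Of the genes for factors that are known to act on the arrays, all 19 listed were open, beside 59.5% of all protein-coding genes. They were led by the cohesin genes Stag1 and Smc3, the cohesin loader Nipbl and the cohesin regulator Pds5a. Ctcf itself scored 145 and 136, and Dnmt3b, the DNA methyltransferase known to methylate variable promoters, 118 and 119. Of 11 genes for partners and effectors of the proteins 9 were open, beside the same 59.5%, with the kinase genes Fyn and Ptk2, the actin regulator gene Wasf1 and the protease gene Adam10 highest. Cyfip2 had no peak, and Ptk2b a peak of 41 in replicate 1 alone.

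Markers of the cells were read as a check, since the labels name no tissue, against the same 59.5%. Of 11 neuronal markers 10 were open, with Tubb3, Nefh and Syt1 highest and Map2 (135 and 128) and Snap25 (135 and 136) next. Dcx had no peak. Of 5 motor neuron markers 4 were open: Isl1 (138 and 137), Slc18a3 (123 and 97), Chat (102 and 78) and, lowest, Lhx3 (58 and 36). Mnx1 had no peak. Of 4 glial markers Gfap was open (113 in both replicates), and Aif1, Aqp4 and Mbp were not.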

How the data were processed

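DNase-seq peaks and hotspots of 2 libraries of 1 group were used. Per the listing deposited with each library, both lists were made by the authors from that library's filtered alignment and a further input, per library and not pooled, on the mm10 assembly, per the labels. Neither aligner nor caller is named in the sources used here. The authors deposited a score per peak (1 to 150) and, per hotspot, the −log10 of a q-value, which was not analysed further; hotspots were used by position and width.

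Distinct peaks on 21 chromosomes were kept, coordinates are 1-based, and genes came from GENCODE M21. Sequence features were read from GRCm38, the assembly of mm10, on both strands: CTCF (14 letters, 2 mismatches) and REST (21 letters, 3 mismatches) consensus matches, CpG ratio, and 32 bp sequences found once. Python 3.11.15, numpy 2.4.6, pandas 2.3.3, scipy 1.17.1 and numba 0.67.0 were used. The overlap and motif steps were tested on simulated data. The labels call the replicates biological but name no separate cultures, so their spread may be technical.

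The members, lists and measures were chosen with earlier results of these data known. Named are all members, all protein-coding genes within 200 kb, and of each list the 4 open genes with the highest lower percentile and the alphabetically first 3 that lack a peak. Genes named beyond this rule (Ctcf, Dnmt3b, Ptk2b, Snap25, Gm38182, Gm38097, Gm10544, Gm10545, Pcdhgb8) were chosen after their values were seen. Some genes of the lists are not reported here. Alternatives were other windows and overlaps, hotspots, single replicates and the strongest peaks.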

Additional observations from a re-analysis of the deposited data

How the results depend on the processing

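The 24 open members were the same with a window of 500 bp, with hotspots in place of peaks and with start codons in place of 5′ ends. A window of 2.5 kb added Pcdhga7 and Pcdhga8, so that 4 gamma members were open. With the strongest 50% of peaks, 15 members (also 15 by their own 5′ end) were open. Of these, 8 were in the beta and 1 in the gamma array. Over all protein-coding genes 12205 were then open, beside 13054 in the main setting. The locus then held 92 shared regions, with 21 outside promoters and 2 at constant exons. An overlap of at least 75 bp left 1 gamma member, losing Pcdhgc4, and a window of 500 bp left 2 regions at constant exons instead of 4. A single replicate gave 26 to 28 open members, 16 to 18 in the beta array and 3 in the gamma array, and 51 to 60 regions outside promoters. Over all protein-coding genes, replicate 1 alone gave 13587 open and replicate 2 alone 13345. With 1 mismatch in place of 2, 10 members instead of 29 and 23 peaks of the locus instead of 72 held a CTCF match. The cause of these shifts was not tested beyond the construction of each alternative. No paired analysis was possible because there is 1 group. Read depth is unknown, so its part in the missing peaks was not tested, and the 6 members with a peak in 1 replicate alone are not shown to differ between replicates.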
